A study of Arabidopsis thaliana with 12 samples.

Results

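MATE (multidrug and toxic compound extrusion) transporters were examined in an RNA sequencing study of Arabidopsis rosettes that compared a line mutated in JAZ repressor genes, a line mutated in the kinase gene CDK8, a line with both and the wild type. The members were taken as all loci of the deposited count table whose functional description holds the words MATE efflux, leaving out AT3G23550 and AT4G39030. This gave 54 of 33323 loci, of which 1, AT2G16905, is a pseudogene in RefSeq. Of the 54, 35 had enough reads to be tested and 19 did not.

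MATE proteins are membrane carriers that move organic molecules out of the cytosol, in plants into the vacuole or the cell wall space, in exchange for protons or other cations. Plants hold a large family of them. Members whose cargo is known move citrate, flavonoids, alkaloids, abscisic acid or foreign toxic compounds, and for most members the cargo is not known. JAZ proteins repress the transcription factors that turn on jasmonate responses, among them the making of defence compounds, and CDK8 is a kinase of the Mediator complex, through which transcription factors reach RNA polymerase.

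The 4 genotypes were sequenced as 3 libraries each, with about 10 rosettes (no roots, plants aged 25 d) pooled for every library. The labels call these biological replicates. All genotypes grew on soil in the same tray at 20 °C with 16 h of light. Col-0 is the wild type, with intact JAZ genes and intact CDK8. The cdk8-1 line carries a mutant allele of CDK8 with intact JAZ genes. The jazD line carries mutations in JAZ1 to JAZ7, JAZ9, JAZ10 and JAZ13, as known for the published line, with intact CDK8. The jazD cdk8-1 line combines them. Each mutant is a single line, no hormone or wound treatment is named, and the alleles of jazD are not given in the labels.

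Total counts per library lay between 17583467 and 21030374. CDK8 had 335 to 406 counts in Col-0 and 339 to 409 in jazD, against 46 to 55 in cdk8-1 and 49 to 71 in jazD cdk8-1, so the libraries matched their labels at this gene. Counts of JAZ2 were 45 to 71 in jazD and 436 to 531 in Col-0, those of JAZ6 were 50 to 67 and 585 to 710, and those of JAZ1 were 39 to 52 and 205 to 238. Not all mutated JAZ genes had fewer counts. JAZ9 had 1185 to 1361 in jazD and 1124 to 1233 in Col-0, JAZ10 had 128 to 239 and 32 to 48, and JAZ13 had 25 to 29 and 1 to 3. Counts over a whole gene do not show whether a working protein is made. Green leaf markers summed to 53800 to 63500 CPM (counts scaled to library size, not to gene length) in every library, while root markers summed to 25.4 to 37.6 CPM with 5 to 7 of 9 at 0 in each genotype, flower markers to 0.639 to 2.23 CPM and seed markers to 0 to 0.208 CPM. The leaf sum was 53800 to 59500 CPM in jazD and 61300 to 63400 CPM in Col-0, and 3 of its 5 genes were lower in jazD. Senescent leaf markers summed to 20.2 to 30.4 CPM in wild type libraries, 21 to 21.4 CPM in cdk8-1, 24.1 to 34.7 CPM in jazD and 19.2 to 25.5 CPM in jazD cdk8-1. Within this list SAG12 was at 0 in all but the jazD cdk8-1 group, and SGR1 held the largest share of the sum. ORE1, a regulator of leaf ageing, averaged 0.44 CPM in wild type libraries, 1.80 CPM in those of jazD and 0.61 CPM in the combined mutant, and SAG13 averaged 7.96, 11.8 and 2.83 CPM. Of the 3 tested, 1 was higher in jazD than in Col-0, and 2 were lower and 1 higher in jazD cdk8-1 than in jazD. Of the root list, NRT2.1, a nitrate transporter gene, averaged 0.55, 2.48 and 1.11 CPM in the same 3 lines. ORE1 and NRT2.1 thus had the order of genotypes seen below for several MATE genes, while SCR and SGR1 had their minimum among these 3 lines in jazD. SCR, which held the largest share of the root sum, averaged 30.06 CPM in wild type libraries. Its mean was 23.88 CPM for jazD and 28.53 CPM for the combined mutant. For SGR1 the means were 15.29, 14.51 and 18.07 CPM. The part of leaf ageing or of other cell types in the results was not tested. In whole rosettes, fewer cells of a type and less RNA per cell cannot be told apart.

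Levels of MATE genes spanned a wide range in wild type rosettes. On the deposited TPM scale, which corrects for gene length, AT1G47530 was the highest in Col-0 at 52.6 ± 2.52 (SD, n = 3), followed by AT3G21690 at 40.2 ± 0.43, AT1G15180 at 31.2 ± 0.76, AT2G21340 at 30.8 ± 2.28, AT2G38330 at 28.0 ± 0.92 and AT5G65380 at 23.7 ± 1.32. At the other end of the tested members stood AT2G04070 at 0.317 ± 0.084, AT4G21903 at 0.297 ± 0.025 and DTX1 at 0.260 ± 0.053 TPM. Of the 34 neighbouring pairs in this order, 8 had libraries that did not overlap, so the order is a coarse one. Summed over the members, the level was 363.5 ± 6.07 TPM in Col-0. It was 448.5 ± 9.55 TPM in cdk8-1, 463.7 ± 13.4 TPM in jazD and 509.6 ± 7.91 TPM in the combined mutant, a description with no test. Every library of the 3 mutant lines lay above every Col-0 library, and the libraries of cdk8-1 and jazD overlapped. A large part of the difference came from 1 abundant gene, AT4G21910. It averaged 17.4 TPM in Col-0, 36.5 TPM in cdk8-1, 62.3 TPM in jazD and 66.2 TPM in the combined mutant. The higher sum in the combined mutant than in jazD was seen on the TPM scale alone. There the median of all genes was shifted by 0.15 (log2) in that comparison, and on the CPM scale the sums were 785.0 ± 7.13 and 780.9 ± 12.5, with overlapping libraries. Against Col-0, at 576.6 ± 3.67 CPM, and cdk8-1, at 677.0 ± 9.09 CPM, both lay higher.

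**Figure D1:**
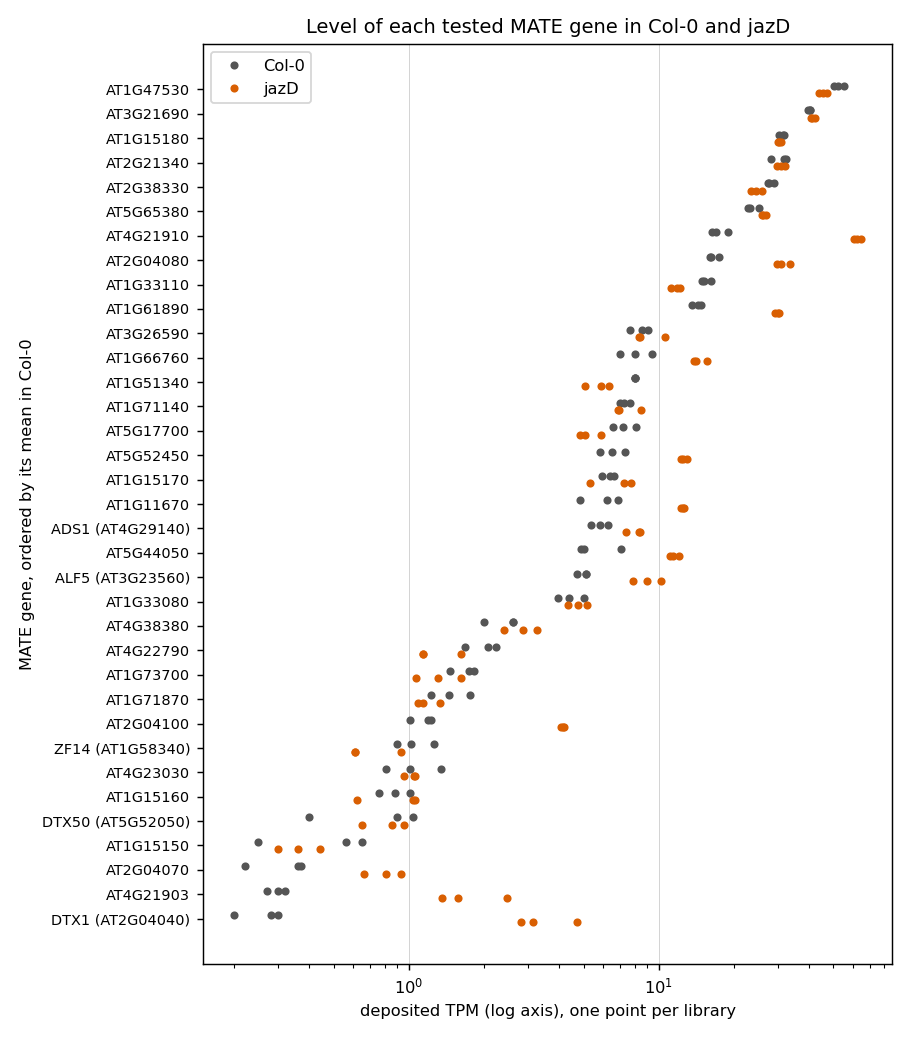
Deposited TPM of the 35 tested MATE genes in the 3 Col-0 libraries (grey) and the 3 jazD libraries (orange), on a log axis, with genes ordered by their Col-0 mean. AT1G47530 has the highest and DTX1 the lowest Col-0 mean, and the orange points of DTX1, AT4G21903, AT2G04100 and AT4G21910 lie well to the right of the grey ones.

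The well known members TT12 and FRD3 were silent or faint in these shoots. Tested members with a described role ranged in Col-0 from 0.26 TPM for DTX1 to 52.6 TPM for AT1G47530. TT12, which loads flavonoids into the vacuole of seed coat cells, had 0 counts in all 12 libraries. FRD3, which releases citrate into the root xylem and so helps iron reach the shoot, had 2, 1 and 2 counts in wild type libraries and 0, 0 and 2 in those of cdk8-1. It had 6, 12 and 2 counts in jazD, and 2, 4 and 4 where both were mutated. Neither had enough counts for a test. Of the 19 untested members, 6 had no count in any library, and the highest single count among the others was 12. A count of 0 in a library allows up to 3 counts at this depth, for counting error only.

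The effect of the jazD mutations with intact CDK8 is read from jazD set against Col-0. Transcripts of 15 MATE genes rose and those of 5 fell among the 35 tested, at an adjusted p of 0.05 in edgeR. Over all 19059 genes tested, 42.8% were called in this comparison, 21.8% higher and 20.9% lower. The median log2 change was 0.17 over the tested members and 0.00 over all genes. The libraries did not overlap for 15 members that were higher and 5 that were lower in jazD, as was so for 26% and 25.5% of all genes. Of the 15 that rose, 9 rose at least 2-fold, and none of the 5 that fell did so. Of all genes, 4.29% were called at least 2-fold higher and 2.28% at least 2-fold lower. DTX1, AT2G04070 and AT4G21903 had enough counts for the test in all 3 jazD libraries and in at most 1 Col-0 library. DTX1 and AT2G04070 would not have been tested without jazD, so a difference was built into their choice. AT4G21903 passed through jazD cdk8-1 as well, a line with the same JAZ mutations, so against Col-0 this holds for it too. Without these 3 genes 12 rose and 5 fell of 32. All 3 are among the 9 that rose at least 2-fold, so that count carries the same reservation.

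DTX1, which exports alkaloids, antibiotics and other toxic compounds when made in bacteria, had the largest difference, which is given as a description with no test because its jazD counts brought it into the test. Its counts were 5, 7 and 8 in Col-0 and 72, 129 and 73 in jazD, which gave 0.259, 0.351 and 0.40 CPM against 3.92, 6.34 and 4.32 CPM. The lowest jazD library was far above the highest Col-0 library, and the level stayed low beside that of other members. The log2 change was 3.83 ± 0.38 (14.2-fold). The gene stands first in a row of 7 MATE genes on chromosome 2, chr2:1334270-1379130 in RefSeq's TAIR10.1, all on the minus strand and all within 44.9 kb. This row and AT4G21903, which lies next to AT4G21910, were singled out after their values were seen, except where the naming rule took a gene.

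Of the 7 genes of the row 4 were tested, and all 4 were higher in jazD, DTX1 and AT2G04070 among them. AT2G04100, the last gene of the row, had 1.71, 1.71 and 1.45 CPM in Col-0 and 6.15, 6.04 and 6.28 CPM in jazD. The groups lay far apart, and the change was 1.92 ± 0.15 (edgeR adjusted p = 1.58e-09). AT2G04080, the most abundant of the row, had 25.0, 22.2 and 23.2 CPM in Col-0 and 45.1, 49.3 and 46.3 CPM in jazD, without overlap, a rise of 1.00 ± 0.06 (edgeR adjusted p = 1.05e-11). AT2G04070 had 10, 6 and 10 counts in Col-0 and 18, 27 and 20 in jazD, a log2 difference of 1.40 ± 0.41, again with no test read from it. Of the other 3 genes of the row, AT2G04066 had no count and AT2G04090 at most 3 counts in a library. AT2G04050, also untested, had 7, 2 and 1 counts in Col-0 and 6, 8 and 4 in jazD, which overlap.

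Genes of the row are close copies, which bears on how reads were assigned. Coding DNA identity was 87.8% between DTX1 and AT2G04050, its nearest member, and 91.0% between AT2G04090 and AT2G04100. Of all 50-base words of the coding sequence, 23.2% of those of AT2G04080, 14.8% of those of AT2G04100, 8.0% of those of DTX1 and 3.5% of those of AT2G04070 occur again in the genome. For AT2G04080, 22.8% of the words are shared with AT2G04066, a short coding fragment of 516 bases at 0 counts. In 1 library the counts of AT2G04090 and AT2G04100 were fractions that summed to a whole number. Summed, this pair rose by 1.93 ± 0.15 in jazD, beside 1.92 for AT2G04100 alone.

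**Figure D2:**
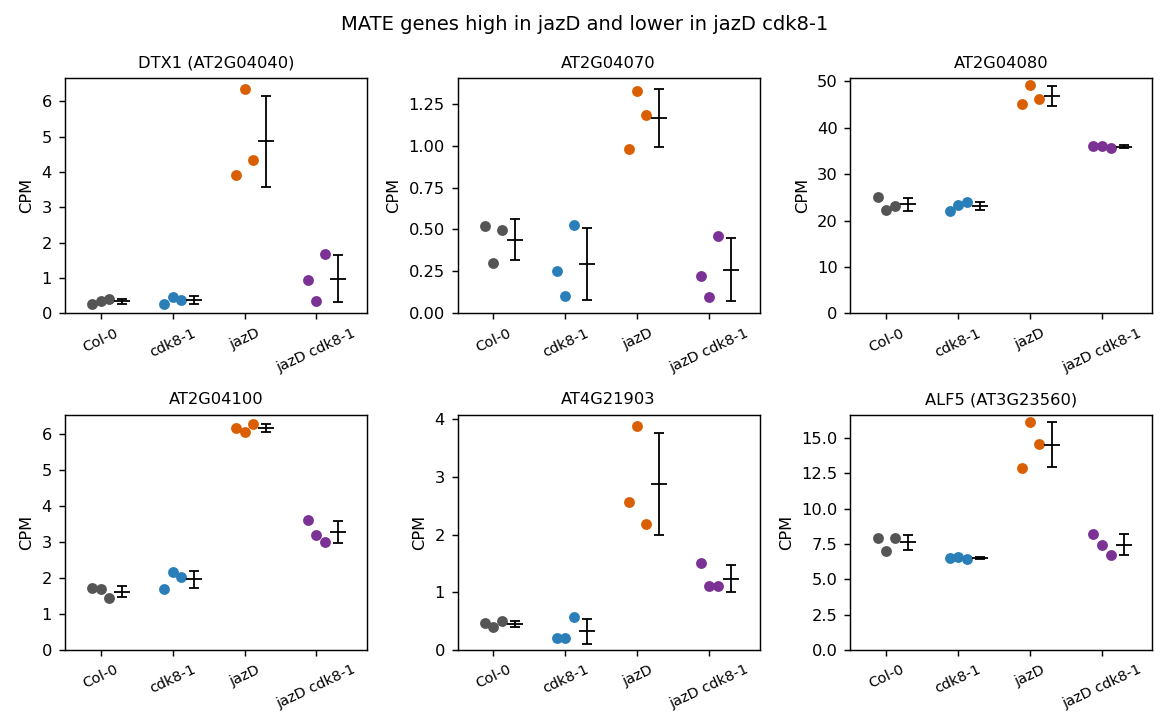
CPM in each library for 4 genes of the chromosome 2 row, for AT4G21903 and for ALF5, in the order Col-0, cdk8-1, jazD, jazD cdk8-1. Points are libraries and the bar is the mean ± SD of 3. In every panel the jazD libraries are the highest, and those of jazD cdk8-1 lie below them. The genes were picked to show this order.

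AT4G21910 and AT4G21903 form a second pair of neighbours, on chromosome 4 at chr4:11620889-11631255, with 83.6% coding identity and no shared 50-base word. AT4G21910 had 34.0, 28.1 and 30.3 CPM in Col-0 and 117.7, 118.2 and 112.9 CPM in jazD. This was a rise of 1.92 ± 0.06 (edgeR adjusted p = 9.69e-17), and it made AT4G21910 the most abundant tested member in jazD on the TPM scale, at 62.3 ± 2.16. AT4G21903 had 9, 8 and 10 counts in Col-0 and 47, 79 and 37 in jazD, a log2 difference of 2.65 ± 0.32. No test is read from this difference, as lines with the jazD mutations brought the gene into the test. The libraries did not overlap for either gene.

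A further group of single genes rose about 2-fold. AT1G61890 went from 23.56, 24.04 and 25.54 CPM in Col-0 to 55.8, 53.1 and 53.0 CPM in jazD (1.15 ± 0.05, edgeR adjusted p = 2.24e-13). Its closest member, AT1G11670 (80.0% coding identity), went from 8.41, 11.5 and 10.8 CPM to 23.0, 22.5 and 22.3 CPM (1.14 ± 0.10, edgeR adjusted p = 4.09e-09). For both the groups lay apart. AT5G44050 rose from 6.95, 9.63 and 7.15 CPM to 16.6, 16.6 and 17.9 CPM (1.10 ± 0.11, edgeR adjusted p = 2.73e-08), and AT5G52450 rose from 8.72, 10.5 and 9.70 CPM to 19.4, 19.8 and 19.5 CPM (1.02 ± 0.09, edgeR adjusted p = 1.01e-08). Both were again without overlap. AT5G52450 lies in a stretch of chromosome 5, from AT5G44490 to AT5G56910, that holds 23 of the 38 genes called at least 8-fold lower in jazD although it has 926 of the 19059 tested genes. AT5G44050 lies shortly before it. The part of this stretch in their change was not tested.

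Among members with an annotated role, ALF5, which is needed for lateral root formation and protects roots against toxic compounds, had 7.94, 7.03 and 7.95 CPM in Col-0 and 12.9, 16.1 and 14.6 CPM in jazD. The groups did not overlap, and the rise was 0.93 ± 0.10 (edgeR adjusted p = 1.21e-07). Its neighbour AT3G23550, not among the members, is 86.8% identical in coding DNA and shares no 50-base word with it. ADS1, named for the disease susceptibility seen when it is overexpressed, rose from 10.95, 9.79 and 9.45 CPM to 15.41, 15.03 and 13.5 CPM (0.55 ± 0.08, edgeR adjusted p = 1.52e-05). The remaining 3 genes that rose were AT1G66760 (0.90 ± 0.10), AT5G65380 (0.23 ± 0.06) and AT3G21690 (0.12 ± 0.04). The call of AT3G21690 ended in 10 of 22 alternative settings and that of AT5G65380 in the 3 tests on TPM values.

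The falls in jazD were small. AT5G17700 went from 12.5, 13.1 and 15.3 CPM to 9.75, 9.88 and 11.7 CPM (−0.39 ± 0.09, edgeR adjusted p = 0.0015). The groups lay apart by less than 1 CPM. AT1G51340 changed by −0.40 ± 0.09, AT1G33110 by −0.32 ± 0.07, AT4G22790 by −0.53 ± 0.19 and AT1G47530 by −0.13 ± 0.05. The call of AT4G22790 was lost in DESeq2 and without Col-0 replicate 2 or 3 or jazD replicate 1 or 3 (adjusted p from 0.0627 to 0.0951), and that of AT1G47530 without replicate 2 or 3 of either genotype (edgeR adjusted p from 0.0772 to 0.125). ZF14, also known as BCD1, a gene tied to iron balance and to branching when overexpressed, had 2.34, 1.61 and 1.90 CPM in Col-0 and 1.2, 1.77 and 1.18 CPM in jazD (−0.47 ± 0.27, edgeR adjusted p = 0.161). DTX50, a plasma membrane exporter of the stress hormone abscisic acid, had 0.623, 1.56 and 1.40 CPM in Col-0 and 1.58, 1.38 and 1.07 CPM in jazD (0.17 ± 0.31, edgeR adjusted p = 0.696). The libraries of both genes overlapped.

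The promoters of genes that rose together are shown because MYC transcription factors, which JAZ proteins repress, are known to bind G-box motifs. Each window runs from 250 bases before to 50 bases after the gene start in RefSeq's TAIR10.1, written from the gene's own strand, and capitals mark any match, on either strand, to the G-box CACGTG, to its variant CACATG, to the variant AACGTG or to the GCC-box GCCGCC. AT2G04100, AT4G21910 and AT1G61890 had the largest rises among the more abundant members, and DTX1 and AT2G04080 were added after their values were seen.
AT2G04100, chr2:1379081-1379380, minus strand: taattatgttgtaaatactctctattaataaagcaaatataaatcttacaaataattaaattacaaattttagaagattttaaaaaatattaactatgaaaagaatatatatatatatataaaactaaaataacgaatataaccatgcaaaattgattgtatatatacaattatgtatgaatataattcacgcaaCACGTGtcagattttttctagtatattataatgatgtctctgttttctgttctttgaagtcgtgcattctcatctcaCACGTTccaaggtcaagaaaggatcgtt
DTX1 (AT2G04040), chr2:1336501-1336800, minus strand: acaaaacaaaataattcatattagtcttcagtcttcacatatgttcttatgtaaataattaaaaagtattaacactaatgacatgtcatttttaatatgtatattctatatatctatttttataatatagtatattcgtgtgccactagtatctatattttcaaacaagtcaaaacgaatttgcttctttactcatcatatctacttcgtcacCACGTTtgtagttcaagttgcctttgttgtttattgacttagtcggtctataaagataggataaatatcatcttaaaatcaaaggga
AT2G04080, chr2:1359354-1359653, minus strand: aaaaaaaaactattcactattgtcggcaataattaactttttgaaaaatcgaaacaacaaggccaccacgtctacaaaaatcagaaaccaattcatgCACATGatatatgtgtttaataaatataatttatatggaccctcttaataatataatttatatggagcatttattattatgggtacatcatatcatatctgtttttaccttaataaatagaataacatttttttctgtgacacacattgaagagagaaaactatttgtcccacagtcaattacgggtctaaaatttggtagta
AT4G21910, chr4:11631206-11631505, minus strand: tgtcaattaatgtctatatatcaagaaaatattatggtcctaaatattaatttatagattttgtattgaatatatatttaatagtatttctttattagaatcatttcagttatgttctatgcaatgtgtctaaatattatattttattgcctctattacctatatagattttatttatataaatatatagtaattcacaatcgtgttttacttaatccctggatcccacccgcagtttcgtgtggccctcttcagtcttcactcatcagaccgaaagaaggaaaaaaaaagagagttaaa
AT1G61890, chr1:22871309-22871608, minus strand: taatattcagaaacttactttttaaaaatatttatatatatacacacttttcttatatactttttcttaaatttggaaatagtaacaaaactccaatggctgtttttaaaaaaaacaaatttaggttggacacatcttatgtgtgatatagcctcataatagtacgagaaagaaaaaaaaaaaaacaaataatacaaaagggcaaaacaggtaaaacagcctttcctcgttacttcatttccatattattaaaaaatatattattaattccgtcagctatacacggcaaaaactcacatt
AT2G04100 held CACGTG 55 bases before the start and AACGTG, read on the other strand as CACGTT, after it. DTX1 held AACGTG in that same reversed form 37 bases before the start, and AT2G04080 held CACATG 153 bases before it. AT4G21910 and AT1G61890 held none of the 4 motifs in the window. Of the 15 genes that rose in jazD, 2 held the G-box, 3 the first variant, 3 the second variant and 0 the GCC-box, and of the 20 tested genes that did not rise the numbers were 4, 2, 2 and 1. Over 27443 windows of the genome, the shares were 7.68%, 12.9%, 8.95% and 2.57%. The 4 motifs do not overlap one another by their letters in any window shown. These are matches of letters, not sites of binding.

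The effect of cdk8-1 with intact JAZ genes is read from cdk8-1 set against Col-0. MATE transcripts changed in both directions, 14 higher and 5 lower of 35. Over all genes, 25.5% were called in this comparison, 11.7% higher and 13.8% lower. The median log2 change was 0.11 over the tested members and 0.00 over all genes. The libraries did not overlap for 15 higher and 5 lower members, as for 18% and 19.5% of all genes. Most changes were below 2-fold, with 1 member called at least 2-fold higher and 1 at least 2-fold lower. The shares over all genes were 0.992% and 2.47%.

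DTX50 had the largest rise, from 0.623, 1.56 and 1.40 CPM in Col-0 to 3.79, 4.70 and 4.71 CPM in cdk8-1. The groups did not overlap, and the rise was 1.87 ± 0.25 (edgeR adjusted p = 8.26e-06). This gene lies in the chromosome 5 stretch named above. AT4G21910 rose from 34.0, 28.1 and 30.3 CPM to 60.3, 60.1 and 62.4 CPM (0.98 ± 0.06, edgeR adjusted p = 1.31e-10), again without overlap. ZF14 rose from 2.34, 1.61 and 1.90 CPM to 3.89, 3.67 and 2.79 CPM (0.82 ± 0.23, edgeR adjusted p = 0.00998), and without Col-0 replicate 2 its change was 0.70 (edgeR adjusted p = 0.0548). Other genes that rose were AT5G52450 (0.69 ± 0.09), AT5G17700 (0.63 ± 0.08), AT1G15170 (0.62 ± 0.11), AT1G61890 (0.52 ± 0.06), AT3G26590 (0.49 ± 0.09), AT3G21690 (0.48 ± 0.04), AT1G33110 (0.47 ± 0.06), AT4G38380 (0.40 ± 0.14), AT1G51340 (0.34 ± 0.08), AT1G11670 (0.31 ± 0.10) and AT1G47530 (0.14 ± 0.05).

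Some of these calls rested on single libraries or on how reads were divided. The change of AT1G11670 was 0.19 without Col-0 replicate 1 (edgeR adjusted p = 0.191), and its call was also lost without cdk8-1 replicate 2 or 3 and with only the libraries of both genotypes. AT4G38380 lost its call in DESeq2, without Col-0 replicate 1 and without any 1 of the cdk8-1 replicates. AT1G47530 lost its call without Col-0 replicate 1 or cdk8-1 replicate 1 or 2. AT1G15170 and its neighbour AT1G15180, 91.2% identical in coding DNA, had fractional counts in all 12 libraries that summed to whole numbers in all 12. Summed, the pair rose by 0.20 ± 0.05 (edgeR adjusted p = 0.00349), beside 0.62 for AT1G15170 alone. AT1G15170 also overlaps the antisense gene AT1G15175, and whether counting used strand is not stated.

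Among the 5 falls in cdk8-1, AT5G44050 stood out, going from 6.95, 9.63 and 7.15 CPM in Col-0 to 3.19, 3.00 and 3.36 CPM. The groups lay apart, and the gene fell by 1.31 on the log2 scale, with SE 0.14 (edgeR adjusted p = 2.41e-07). AT1G66760 went from 11.2, 12.3 and 14.9 CPM to 7.04, 9.61 and 8.69 CPM (−0.60 ± 0.11, edgeR adjusted p = 4.51e-04). ADS1 went from 10.95, 9.79 and 9.45 CPM to 7.88, 8.06 and 8.36 CPM (−0.31 ± 0.09, edgeR adjusted p = 0.0126), and its call was lost in DESeq2, in the 3 TPM tests and without Col-0 replicate 1 (adjusted p from 0.0544 to 0.0949). AT5G65380 changed by −0.26 ± 0.06, a call lost in the 3 TPM tests, and AT2G21340 by −0.18 ± 0.06, a call lost in 8 of 22 settings. The changes of DTX1 (0.11 ± 0.60, edgeR adjusted p = 0.917) and AT2G04080 (−0.02 ± 0.06, edgeR adjusted p = 0.857) did not pass the test, and their libraries overlapped between Col-0 and cdk8-1.

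**Figure D3:**
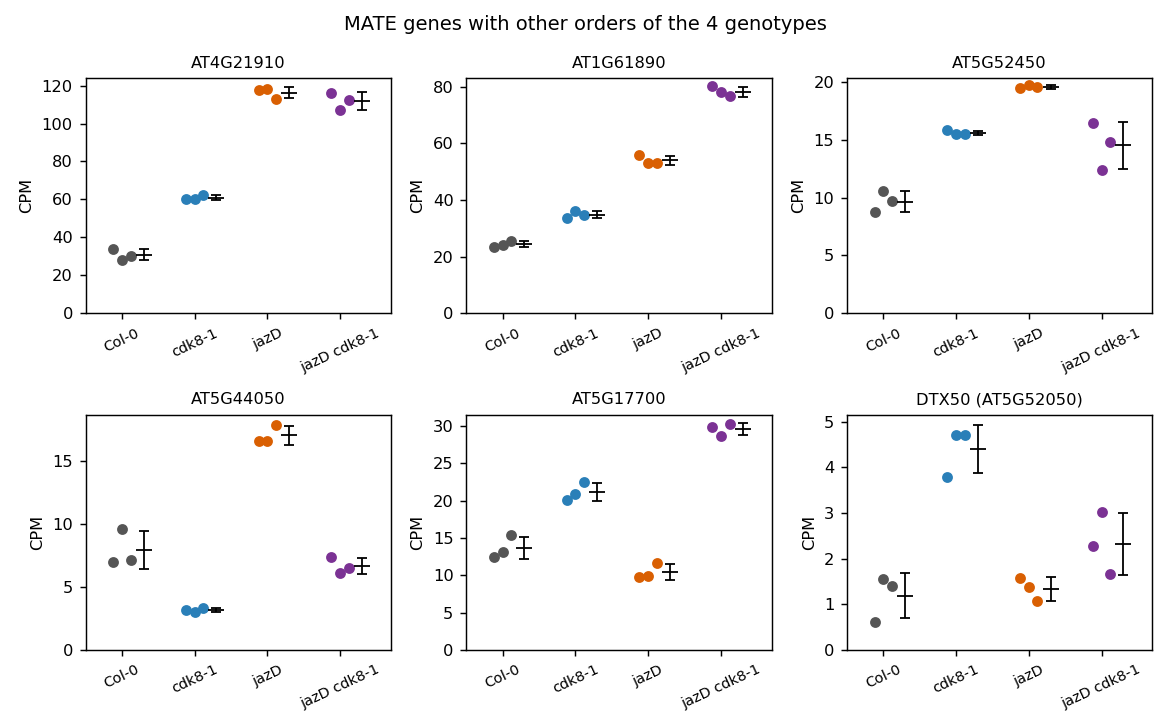
CPM in each library of 6 MATE genes with differing orders of the 4 genotypes. Points are libraries and the bar is the mean ± SD of 3. AT4G21910 is as high in jazD cdk8-1 as in jazD, AT1G61890 is highest in jazD cdk8-1, AT5G44050 is lower and AT5G17700 higher in each cdk8-1 line than in the line with the same JAZ genes and intact CDK8, and DTX50 is highest in cdk8-1.

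The effect of cdk8-1 in plants with the jazD mutations is read from jazD cdk8-1 set against jazD. MATE genes again moved both ways, 10 higher and 13 lower of 35. Over all genes, 35.8% were called in this comparison, 16.9% higher and 19% lower. The median log2 change was 0.01 over the tested members and 0.00 over all genes. The libraries did not overlap for 9 higher and 14 lower members, as for 23.2% and 24.6% of all genes. Without DTX1, AT2G04070 and AT4G21903, 10 were higher and 10 lower of 32. This comparison and that of jazD with Col-0 share the jazD libraries, so a high jazD value gives a rise in one and a fall in the other.

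The 4 tested genes of the chromosome 2 row were lower in jazD cdk8-1 than in jazD. For DTX1 and AT2G04070, brought into the test by their jazD counts, this is again a description. DTX1 had 0.946, 0.335 and 1.67 CPM in jazD cdk8-1, against 3.92, 6.34 and 4.32 CPM in jazD, a log2 difference of −2.30 ± 0.31. Its 3 libraries were spread widely, with 17, 7 and 36 counts, and all lay below jazD. AT2G04100 had 3.62, 3.21 and 3.01 CPM (−0.91 ± 0.14, edgeR adjusted p = 1.76e-05) and AT2G04080 had 36.1, 36.1 and 35.6 CPM (−0.39 ± 0.06, edgeR adjusted p = 1.38e-05). AT2G04070 had 4, 2 and 10 counts (−2.12 ± 0.45). No library of jazD cdk8-1 reached the lowest jazD library for any of these 4. The untested AT2G04050 had 0, 4 and 12 counts, which overlap those of jazD. AT4G21903 likewise changed by −1.24 ± 0.27 (edgeR adjusted p = 0.00105), with 27, 23 and 24 counts.

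ALF5 had 8.18, 7.46 and 6.72 CPM in jazD cdk8-1 against 12.9, 16.1 and 14.6 CPM in jazD. These groups lay apart, while the jazD cdk8-1 libraries overlapped those of Col-0, and the change was −0.97 ± 0.10 (edgeR adjusted p = 9.61e-08). Its difference from Col-0 was −0.04 ± 0.11 (edgeR adjusted p = 0.813). AT5G44050 had 7.40, 6.12 and 6.53 CPM, all under the lowest jazD library at 16.6 CPM (−1.35 ± 0.11, edgeR adjusted p = 2.7e-09). ADS1 went from 15.41, 15.03 and 13.5 CPM in jazD to 10.29, 10.67 and 10.14 CPM (−0.50 ± 0.08, edgeR adjusted p = 5.18e-05), without overlap. AT5G52450 changed by −0.43 ± 0.09, AT1G33080 by −0.44 ± 0.14, AT1G11670 by −0.30 ± 0.09, AT1G66760 by −0.29 ± 0.10 and AT2G21340 by −0.21 ± 0.06. The last 4 of these lost their calls in the 3 TPM tests. AT1G33080 also lost it without replicate 1 of either genotype, AT1G11670 without jazD cdk8-1 replicate 2, and AT1G66760 without jazD replicate 3 or jazD cdk8-1 replicate 2 or 3.

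The largest rise in jazD cdk8-1 over jazD was that of AT5G17700, at 29.9, 28.7 and 30.2 CPM against 9.75, 9.88 and 11.7 CPM. The groups lay far apart, with a change of 1.51 ± 0.08 (edgeR adjusted p = 7.02e-12). ZF14 had 1.61, 3.01 and 2.87 CPM against 1.2, 1.77 and 1.18 CPM (0.85 ± 0.25, edgeR adjusted p = 0.0119), with an overlap of libraries, and its call was lost without jazD replicate 1 or 3 or jazD cdk8-1 replicate 2 or 3 (edgeR adjusted p from 0.0519 to 0.0689). DTX50 had 2.28, 3.01 and 1.67 CPM against 1.58, 1.38 and 1.07 CPM (0.78 ± 0.27, edgeR adjusted p = 0.0299). Its libraries lay apart narrowly, and the call was lost without jazD replicate 2 or 3 or jazD cdk8-1 replicate 1 or 2 (edgeR adjusted p from 0.0584 to 0.191). AT4G22790 changed by 0.76 ± 0.18, AT1G61890 by 0.54 ± 0.05, AT1G51340 by 0.39 ± 0.09, AT1G33110 by 0.25 ± 0.07 and AT3G21690 by 0.17 ± 0.04. Smaller or less stable rises were those of AT1G71870 (0.58 ± 0.21), lost in 7 of 22 settings and at 0.37 without jazD cdk8-1 replicate 3 (edgeR adjusted p = 0.248), and AT2G38330 (0.18 ± 0.06), lost in 6 of 22. AT1G33110 lost its call without jazD cdk8-1 replicate 2 (edgeR adjusted p = 0.0672).

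**Figure D4:**
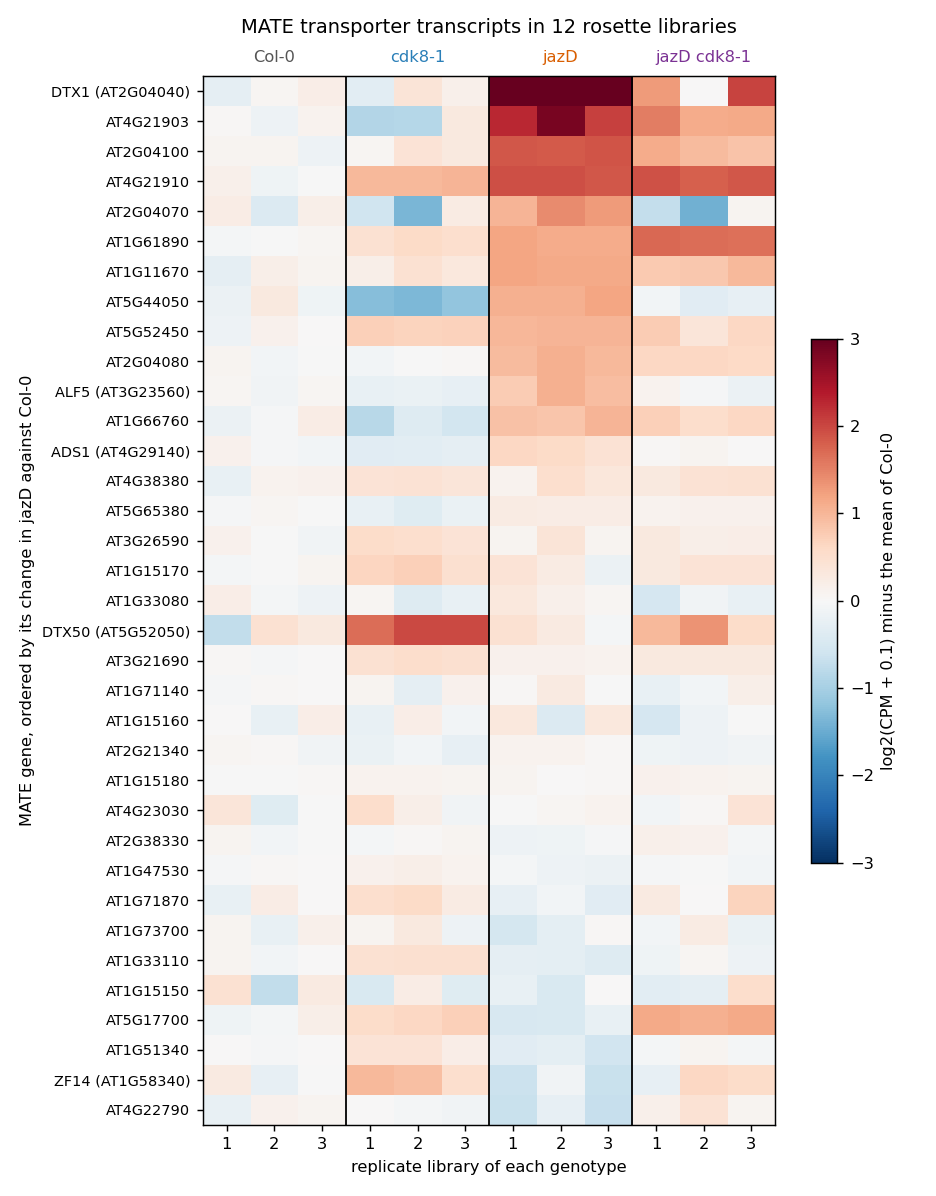
Level of each tested MATE gene in the 12 libraries, as log2(CPM + 0.1) minus the mean of Col-0, with genes ordered from the largest rise to the largest fall in jazD and the colour scale closed at its ends. The upper rows are red in jazD and paler in jazD cdk8-1 for most genes, while AT4G21910 and AT1G61890 are as red or redder in jazD cdk8-1.

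Against Col-0, jazD cdk8-1 had 14 MATE genes higher and 0 lower in edgeR. Over all genes, 32.4% were called, 16.3% higher and 16.1% lower, and the median log2 change was 0.21 over the tested members and 0.01 over all genes. The libraries did not overlap for 16 higher members and 1 lower, as for 23.3% and 21.5% of all genes. Without DTX1, AT2G04070 and AT4G21903, 12 were called higher and 0 lower of 32, with a median of 0.17. DESeq2 also called 0 members lower, and at an unadjusted edgeR p under 0.05 there were 2, AT2G21340 and AT5G44050. Leaving out Col-0 replicate 1 or replicate 3 gave 1 lower each, AT5G44050 at −0.34 (edgeR adjusted p = 0.048) and AT2G21340 at −0.18 (edgeR adjusted p = 0.0244). AT4G21910 stood at 116.1, 106.9 and 112.6 CPM (1.86 ± 0.06, edgeR adjusted p = 4.46e-16) and AT1G61890 at 80.0, 77.9 and 76.6 CPM (1.68 ± 0.05, edgeR adjusted p = 4.55e-16). AT5G17700, low in jazD, was also above Col-0 (1.11 ± 0.08, edgeR adjusted p = 5.55e-10). DTX1 was above Col-0 by 1.53 ± 0.49 with overlapping libraries, a description with no test for the reason given above. Without jazD cdk8-1 replicate 3 its difference was 0.87, and without Col-0 replicate 1 it was 1.38. DTX50 was higher by 0.95 ± 0.28 (edgeR adjusted p = 0.011), a call lost without Col-0 replicate 1, at 0.64 (edgeR adjusted p = 0.0722), and without jazD cdk8-1 replicate 2.

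The effects of cdk8-1 in both backgrounds were set side by side, since these comparisons share no libraries. Of 13 members called in both, 11 had the same direction, 7 higher and 4 lower in both. That is 84.6% of the members called in both, near the 89.1% of the 2944 genes called in both over the whole table. Over the 35 tested members Pearson's r of the log2 changes was 0.56 and Spearman's rho was 0.57, and over all genes they were 0.52 and 0.45, a description across genes that are not independent replicates. AT5G44050 was an example of a gene lower in both lines with cdk8-1, at −1.31 ± 0.14 with intact JAZ genes and −1.35 ± 0.11 in jazD. The interaction of these effects was −0.04 ± 0.18 (edgeR adjusted p = 0.914). AT1G61890 was an example of a gene that was higher, at 0.52 ± 0.06 and 0.54 ± 0.05, with an interaction of 0.02 ± 0.08 (edgeR adjusted p = 0.899).

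An interaction term tested whether the log2 change from cdk8-1 was the same in both JAZ backgrounds, with negative values for a lower change in jazD. It was called for 11 members, 2 higher and 9 lower. Over all genes 16.5% were called, 8.16% higher and 8.39% lower, and the median was −0.19 over the tested members and 0.00 over all genes. Without DTX1, AT2G04070 and AT4G21903, 2 were higher and 8 lower of 32. DTX1 had the most negative value, −2.41 ± 0.70. This is a description with no test, because its jazD counts brought it into the test and a high jazD value lowers the term. It is among the 9 counted lower, and without cdk8-1 replicate 2 or 3 it is not. AT2G04100 (−1.19 ± 0.23), AT2G04080 (−0.37 ± 0.08) and ALF5 (−0.74 ± 0.15) also had a more negative change in jazD. AT4G21910 (−1.04 ± 0.08, edgeR adjusted p = 6.81e-09) differed in another way, since cdk8-1 raised it with intact JAZ genes and its change in jazD was −0.06 ± 0.05 (edgeR adjusted p = 0.433).

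AT5G52450 had opposite called changes, higher in cdk8-1 than in Col-0 and lower in jazD cdk8-1 than in jazD, with an interaction of −1.13 ± 0.13 (edgeR adjusted p = 2.21e-06). Its levels were 15.8, 15.5 and 15.5 CPM in cdk8-1 and 16.4, 12.4 and 14.8 CPM in jazD cdk8-1, so the lines with cdk8-1 overlapped while Col-0 and jazD lay apart. AT1G11670 (−0.60 ± 0.14) had the same order of signs, and AT3G26590 (−0.48 ± 0.12) and AT3G21690 (−0.31 ± 0.06) had a larger rise with intact JAZ genes. The call of AT3G26590 was lost in the 3 TPM tests. On the positive side stood AT5G17700 (0.88 ± 0.12, edgeR adjusted p = 2.25e-05) and AT4G22790 (0.83 ± 0.25, edgeR adjusted p = 0.0275), the latter lost in 7 of 21 settings. The interaction of DTX50 was −1.09 ± 0.38 and narrowly missed the threshold (edgeR adjusted p = 0.0549), with adjusted p on both sides of it in the alternatives.

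**Figure D5:**
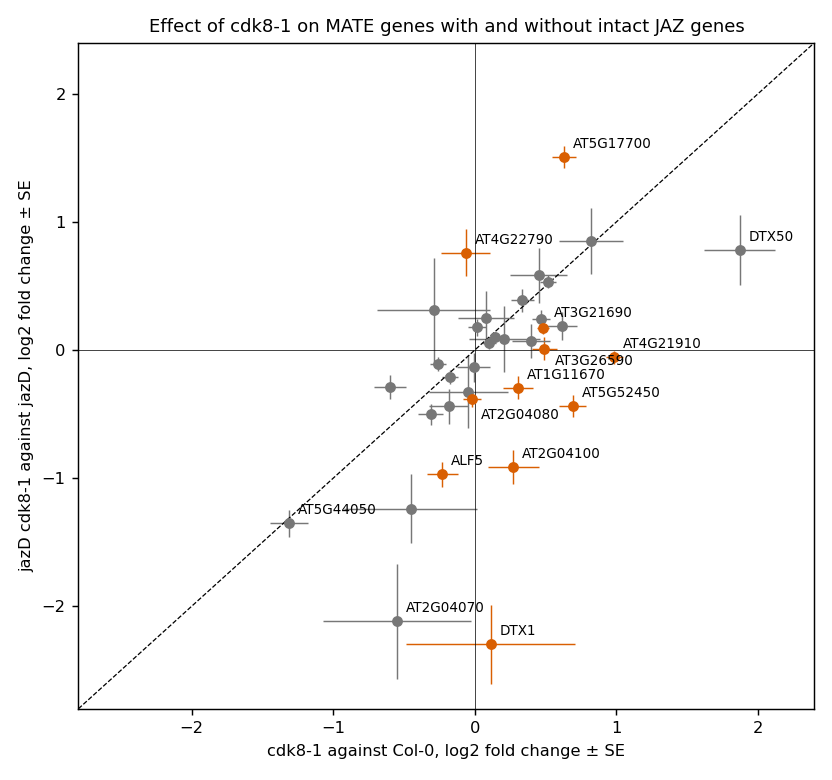
Log2 change in cdk8-1 against Col-0 (horizontal) and in jazD cdk8-1 against jazD (vertical) of the 35 tested MATE genes, with SE bars and the line of equal change. Orange marks the 11 genes with a called interaction, of which DTX1 entered the test through its jazD libraries. AT5G44050 lies on the line, AT5G17700 above it, and DTX1, AT2G04100, ALF5, AT5G52450 and AT4G21910 below it.

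The tested members called in none of the 5 comparisons were AT1G15150, AT1G15160, AT1G15180, AT1G71140, AT1G73700 and AT4G23030. The share of all genes with no call was not counted, so their number is not read as a result. Among these members, AT1G15150, AT1G15160 and AT1G15180 stand in one row of 4 close copies with AT1G15170. Over the family, 19 members lie in 5 rows of neighbours, and for 18 of them the member with the most similar coding DNA was in the same row. Directions could differ within a row. In the row of AT1G33080 to AT1G33110 on chromosome 1, AT1G33090 and AT1G33100 had 0 counts, AT1G33080 was lower in jazD cdk8-1 than in jazD, and AT1G33110 was higher.

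Genes that act beside known MATE carriers moved in both directions in jazD against Col-0, as all genes did. Over all genes tested, 21.8% were called higher and 20.9% lower, and the lists were not tested as sets. Of 22 tested genes of iron and citrate homeostasis, 7 were higher and 5 lower. Among the 5 were the iron reductase genes FRO6 (−1.61 ± 0.05) and FRO7 (−0.97 ± 0.06), which both lie in the chromosome 5 stretch, and NAS1 (−0.90 ± 0.09), which makes the metal chelator nicotianamine. Of 13 genes of abscisic acid synthesis, turnover and transport, 5 were higher and 5 lower. ABA1, which makes violaxanthin on the way to the hormone, changed by −0.72 ± 0.04, the rate-limiting NCED3 by −1.40 ± 0.17 and the glucosyltransferase gene UGT71B6 by 1.92 ± 0.18. Of 13 ABC exporter genes, 4 were higher and 4 lower. Among the higher were ABCG34 (2.00 ± 0.09), which exports the antifungal camalexin, and PEN3 (1.24 ± 0.06), which exports defence compounds at sites of fungal attack. The lower ones are not named here.

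Of 6 genes of vacuolar flavonoid transport, 1 was higher and 3 lower. The higher one was TT19 (1.89 ± 0.10), a glutathione transferase gene needed for anthocyanin to reach the vacuole. Of 4 genes of plastid salicylate synthesis, 0 were higher and 1 lower, ICS2 at −0.82 ± 0.16. Of 9 ATG8 genes, whose proteins mark autophagosomes, 4 were higher and 0 lower, with changes of 0.21 to 0.71. The median log2 changes of the 6 lists in jazD, in the order given, were −0.01, −0.19, 0.02, −0.10, −0.33 and 0.25, beside 0.00 over all genes. In cdk8-1 against Col-0 these 6 lists had 5 higher and 6 lower, 1 and 5, 2 and 2, 3 and 0, 0 and 3, and 1 and 1, in that order. Over all genes, 11.7% were higher and 13.8% lower there. In jazD cdk8-1 against jazD the lists had 5 and 7, 4 and 5, 5 and 3, 2 and 0, 0 and 1, and 0 and 3, beside 16.9% and 19% of all genes.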

How the data were processed

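Expected counts per gene and TPM per gene were deposited by the authors, who made them with RSEM 1.2.25 on TAIR10, per the submitters' processing notes. Not given in the sources used here were the aligner, strand setting and read length. The deposited expected counts were whole for 96.58% of values (tolerance 1e-9), and rounding preceded every test. Depth was 17583467 to 21030374 counts in a library, which limits genes with few counts.

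The main test was edgeR 4.0.16 under R 4.3.3 (filterByExpr, TMM factors 0.9543 to 1.0557, quasi-likelihood) in 1 fit to all 12 libraries with a mean per genotype (8 residual degrees of freedom, common biological variation 5.07%). Tests were 2-sided, and p-values were adjusted by Benjamini-Hochberg over 19059 genes and called at 0.05 with no fold threshold. The standard error is the size of the log2 change divided by the square root of its F statistic. CPM values use TMM-scaled totals. The scripts were checked on simulated data.

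Deposited TPM values, on the log2 scale with a pseudocount of 0.1 or 1, were tested with limma 3.58.1, and counts also with DESeq2 1.42.0, as alternatives. Other alternatives were DESeq2 size factors, a looser and a stricter filter, the replicate number as a block, fits to the compared genotypes alone and leaving out each library. Summing pairs of genes with divided reads was added after seeing the data.

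The members, lists and naming rule were chosen with earlier results of these data known. The rule names the 6 largest called rises and falls in jazD against Col-0, the 3 largest in each cdk8-1 comparison (average log2 CPM no lower than 1), every member called in the interaction and tested members with a described role. Lists were iron and citrate homeostasis, abscisic acid, ABC exporters, vacuolar flavonoid transport, plastid salicylate synthesis, ATG8 genes, and markers of green leaf, root, flower, seed and senescent leaf. By plan, up to 3 genes of a pathway list were named, by smallest adjusted p in jazD against Col-0. The named genes therefore do not show the balance of rises and falls in a list. Genes were matched by locus to RefSeq's TAIR10.1, which gave names for 32835 of 33323 loci, coordinates, promoters and coding sequences. Gene names without an entry there are given as loci.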

Additional observations from a re-analysis of the deposited data

Results flagged for a closer look

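For 11 MATE genes the effect of cdk8-1 differed between jazD plants and plants with intact JAZ genes by the interaction term of the edgeR fit. The log2 differences, jazD minus intact, were −2.41 for DTX1, −1.19 for AT2G04100 and −0.37 for AT2G04080, all in the chromosome 2 row. DTX1 entered the test through its jazD libraries, so its difference is a description with no test. Its call was lost without cdk8-1 replicate 2 or 3. The differences were −1.13 for AT5G52450, −1.04 for AT4G21910, −0.74 for ALF5, −0.60 for AT1G11670, −0.48 for AT3G26590 and −0.31 for AT3G21690. They were 0.88 for AT5G17700 and 0.83 for AT4G22790, the latter lost in DESeq2 and without any 1 of 6 libraries. The call of AT3G26590 was lost in the tests on TPM values.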

How the results depend on the processing

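No call changed direction under any alternative. Of the calls, 16 of 20 in jazD against Col-0, 12 of 19 in cdk8-1 against Col-0, 14 of 23 in jazD cdk8-1 against jazD, 10 of 14 in jazD cdk8-1 against Col-0 and 8 of 11 in the interaction held in every alternative in which the gene was tested. Leaving out single libraries gave 3 to 5 members lower in jazD against Col-0 (3 without Col-0 replicate 2 or 3 or jazD replicate 3), 3 to 5 lower in cdk8-1 (3 without Col-0 replicate 1), 6 to 10 higher in jazD cdk8-1 against jazD (6 without jazD cdk8-1 replicate 2), 0 to 1 lower in jazD cdk8-1 against Col-0, and 1 to 2 higher in the interaction. The TPM tests gave 2 lower in cdk8-1, and 7 lower in jazD cdk8-1 against jazD with a mean TPM of at least 1. DESeq2 gave 1 higher in the interaction.

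TPM scaling moved the median of all genes by 0.13 to 0.15 in jazD cdk8-1 against jazD, so falls there are larger relative to that median than their TPM values show. The share of calls that were higher over all genes was 51% against 37.6% with TPM and a pseudocount of 0.1 in jazD, 45.9% against 69% in cdk8-1, 47.1% against 76% in jazD cdk8-1 against jazD, 50.4% against 67% in jazD cdk8-1 against Col-0 and 49.3% against 61.7% in the interaction.

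Replicate numbers did not pair libraries: over 18 pairs with the same number, correlations of deviations from the group means were −0.06 to 0.05, and 2 of 12 libraries correlated best with their own number. With the replicate block, members called higher and lower numbered 15 and 5, 14 and 5, 9 and 13, 14 and 0, and 2 and 10 in the 5 comparisons in the order above. Depth limits the 19 untested members and the faint tested ones, such as DTX1 in Col-0.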
